A study of Mus musculus with 308 samples.

Results

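Klf10 and Klf11 are a closely related pair of zinc-finger transcription factors, and their transcript levels were followed through every dose group of 7 mouse tissues. They were picked from earlier results of the same arrays, in which Klf11 was lower under single fumarate compounds but not under their combination. The members are the probe sets that carry Klf10 or Klf11 as their only gene symbol, which gives 1 probe set for each gene, so 2 of 17097 genes and 2 of 45141 probe sets on the array. Klf10 (gene ID 21847, probe set 1416029_PM_at) lies at chr15:38291464-38300711 and Klf11 (gene ID 194655, probe set 1437241_PM_at) at chr12:24651371-24662782, both in GRCm38.p6 as given by RefSeq. Both probe sets were above the filter for dim signals in all 308 arrays.

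KLF10 and KLF11 are also known as TIEG1 and TIEG2, for transforming growth factor beta inducible early gene. Both bind GC-rich DNA through C2H2 zinc fingers at their C-terminal end, and both can repress transcription through an N-terminal motif that recruits the SIN3A corepressor complex with its histone deacetylases. KLF10 mediates part of the antiproliferative response to TGF-beta and is tied to the circadian clock in liver, and KLF11 is known for roles in pancreatic beta cells, in lipid metabolism and in control of monoamine oxidase genes.

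C57BL/6 mice were dosed once a day for 10 days and organs were taken 12 h after the last dose. The groups are dimethyl fumarate at 100 mg/kg (DMF100), dimethyl fumarate at 179.2 mg/kg (DMF179.2), a mixture of the calcium, magnesium and zinc salts of MEF at 79.2 mg/kg (MEF79.2), and a combination, in which mice received both DMF100 and MEF79.2 for a total of 179.2 mg/kg. Another group carries the label Nav, which the sources do not explain, and the last is the vehicle, 0.8% hydroxypropyl methylcellulose, which the dosed groups carry in common as far as the labels say. Per tissue and group there were between 5 and 8 arrays, from kidney, spleen, jejunum, brain, blood and the inguinal and mesenteric lymph nodes. The sex and age of the mice are not given in the sources used here.

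All values are log2 expression values, and all differences are differences of group means on that scale. The tissues were normalized apart, so a level is read only within its tissue and only for its own gene. Every marker gene checked for a tissue, such as the kidney list of 4 genes or the brain list of 5, was above that tissue's filter threshold. In bulk tissue, fewer cells of a type and less RNA per cell cannot be told apart. Fits were made with limma over the 10378 to 10847 genes that passed the filter in each tissue, with calls made where the p, adjusted over those genes by Benjamini and Hochberg, was under 0.05. No p is given for a gene in a tissue whose values chose it, which were kidney, inguinal node, mesenteric node, spleen and jejunum for Klf11 and kidney and inguinal node for Klf10. In those tissues words such as lower or higher describe group means only.

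The window just upstream of the Klf11 gene start is shown because the binding motifs of GC-box factors, which include the KLF proteins themselves, and of clock factors can be read in it. It covers the 250 bases chr12:24651121-24651370 on the + strand of GRCm38.p6, written 5′ to 3′ up to the base before the RefSeq gene start, with an E box in capitals.
Klf11 upstream window: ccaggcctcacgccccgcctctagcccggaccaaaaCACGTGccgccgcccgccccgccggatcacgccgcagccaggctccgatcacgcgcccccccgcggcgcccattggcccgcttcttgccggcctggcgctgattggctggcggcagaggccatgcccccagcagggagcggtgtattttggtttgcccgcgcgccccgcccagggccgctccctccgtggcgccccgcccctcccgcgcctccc
The E box (CACGTG, the same on both strands) starts 214 bases upstream of the gene start. The GC box GGGCGG was found 4 times, each on the reverse strand as CCGCCC, starting 205, 201, 49 and 20 bases upstream. The first pair of these overlaps by a few bases. The window is 76.8% G and C. Of 32851 RefSeq mouse windows of the same length, 6.02% hold this E box and 32.7% hold a GC box on either strand. TGACNNNGC, the core of the antioxidant response element, is in 10.2% of the windows, TGACG in 17.8% and CAGAC in 42.2%. These letters were not found in the Klf11 window on either strand. The Klf10 window is not shown.

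Klf11 was lowest under DMF100 in kidney, at a geometric-mean level 0.457 times that of vehicle, and the combination with MEF salts sat close to vehicle. Under DMF100 the 8 kidneys ran from 6.91 over a median of 7.66 to 8.48. Under DMF179.2 the lowest, median and highest were 8.01, 8.35 and 8.68, and under MEF79.2 (7 arrays) they were 7.95, 8.12 and 8.97. The combination ran from 7.99 over 8.80 to 9.05, Nav from 8.34 over 8.92 to 9.25, and the 7 vehicle kidneys from 7.53 over 8.71 to 9.61. All 8 DMF100 kidneys lay below the vehicle mean, and 2 of them lay below every vehicle array. The kidney vehicle group was the widest of all Klf11 groups. DMF100 averaged 7.67 ± 0.55, DMF179.2 averaged 8.31 ± 0.23, MEF79.2 averaged 8.34 ± 0.37, the combination averaged 8.68 ± 0.39 and Nav averaged 8.84 ± 0.34, against 8.80 ± 0.70 under vehicle (SD). The differences from vehicle were -1.13 ± 0.22 for DMF100, -0.49 ± 0.22 for DMF179.2, -0.46 ± 0.23 for MEF79.2 and -0.11 ± 0.22 for the combination (SE). Within the order of group means, the step from DMF100 up to DMF179.2 was larger than the spread of those groups, and the other neighbours were closer than their spread.

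The inguinal node gave the same order of single compounds. Its DMF100 arrays ran from 6.76 over 7.12 to 7.65, DMF179.2 from 7.47 over 7.94 to 8.08, and MEF79.2 from 7.34 over 7.80 to 8.31. The combination ran from 7.76 over 8.19 to 8.27, Nav from 7.83 over 8.11 to 8.64, and vehicle from 7.53 over 8.17 to 8.83. Here 5 of 8 DMF100 nodes lay below every vehicle node, and no combination node did. DMF100 was -0.94 ± 0.17 from vehicle, a level 0.521 times as high, and the other differences were -0.35 ± 0.18 for DMF179.2, -0.32 ± 0.18 for MEF79.2 and -0.07 ± 0.17 for the combination.

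In spleen, Klf11 ran from 6.97 over 7.43 to 8.11 under DMF100, from 7.67 over 8.21 to 8.45 under DMF179.2 and from 7.19 over 7.74 to 8.34 under MEF79.2. The combination ran from 7.56 over 8.07 to 8.50, Nav from 7.19 over 7.68 to 8.67, and vehicle from 7.42 over 8.43 to 8.77. All 8 spleens under DMF100 lay below the vehicle mean, and 4 lay below every vehicle spleen. The differences from vehicle were -0.84 ± 0.18 for DMF100, -0.14 ± 0.18 for DMF179.2, -0.49 ± 0.19 for MEF79.2 and -0.23 ± 0.18 for the combination. The higher DMF dose was thus nearer to vehicle than the lower one, as in kidney and inguinal node.

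In mesenteric node DMF100 alone stood below the rest. Its arrays ran from 7.86 over 8.11 to 8.53, against 8.01, 8.68 and 9.23 for the lowest, median and highest of vehicle. DMF179.2 ran from 8.50 over 8.72 to 8.91, MEF79.2 from 8.49 over 8.56 to 9.0, the combination (6 arrays) from 8.67 over 8.95 to 9.12, and Nav from 8.50 over 8.94 to 9.30. Every combination array lay above the vehicle mean of 8.64 and every DMF100 array below it. The differences from vehicle were -0.46 ± 0.13 for DMF100, 0.08 ± 0.13 for DMF179.2, 0.04 ± 0.13 for MEF79.2 and 0.28 ± 0.14 for the combination.

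In jejunum the DMF100 and DMF179.2 means were alike, and the combination lay nearer to them than to vehicle. The lowest, median and highest were 6.60, 6.81 and 7.44 for the 6 DMF100 arrays, 6.22, 7.06 and 7.39 for DMF179.2, 6.66, 7.26 and 7.85 for MEF79.2, and 6.54, 7.02 and 7.60 for the combination. Nav ran from 6.53 over 7.29 to 7.98 and vehicle from 7.01 over 7.33 to 8.13. Of the 6 DMF100 arrays 5 lay below every vehicle array, and so did 4 of the 8 under the combination. The differences from vehicle were -0.54 ± 0.21 for DMF100, -0.56 ± 0.20 for DMF179.2, -0.23 ± 0.20 for MEF79.2 and -0.42 ± 0.20 for the combination.

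Blood and brain were not part of the choice, and Klf11 passed the test in neither. In blood, Klf11 ran from 5.54 over 6.32 to 6.53 under DMF100, from 5.70 over 6.50 to 7.10 under DMF179.2 and from 5.83 over 6.53 to 6.99 under the combination. The 5 blood arrays under MEF79.2 had 6.54, 7.0, 6.24, 6.28 and 5.86, the 5 of Nav 6.32, 6.75, 6.37, 6.80 and 6.22, and vehicle ran from 5.71 over 6.66 to 7.55. All groups overlap. The limma difference from vehicle was -0.49 ± 0.24 for DMF100, below the vehicle mean in 7 of 7 arrays, with adjusted p = 0.484, and 0.26% of the genes tested in blood were called in that comparison. MEF79.2 was at -0.33 ± 0.26 and the combination at -0.24 ± 0.25.

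In brain the whole range of Klf11 was narrow. DMF100 ran from 7.74 over 8.02 to 8.34, DMF179.2 from 7.57 over 8.01 to 8.17, MEF79.2 from 7.68 over 7.98 to 8.09, the combination from 7.61 over 7.95 to 8.13, Nav from 8.01 over 8.18 to 8.39, and vehicle from 7.93 over 8.08 to 8.32. DMF100 was at -0.06 ± 0.08 against vehicle with a 95% interval from -0.23 to 0.11 (limma adjusted p = 0.954), so a change of the size seen in kidney lies outside that interval. DMF179.2, MEF79.2 and the combination were at -0.17 ± 0.08, -0.19 ± 0.08 and -0.19 ± 0.08, with adjusted p = 0.313, 0.23 and 0.239. Over the 7 tissues, the Klf11 mean under DMF100 was below vehicle in 7 and was the lowest of the 6 group means in 5. The mean under the combination was above that of DMF100 in 6 tissues and above that of MEF79.2 in 5. Of the 7 tissues all but blood and brain chose Klf11, so these counts are largely part of the choice.

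**Figure D1:**
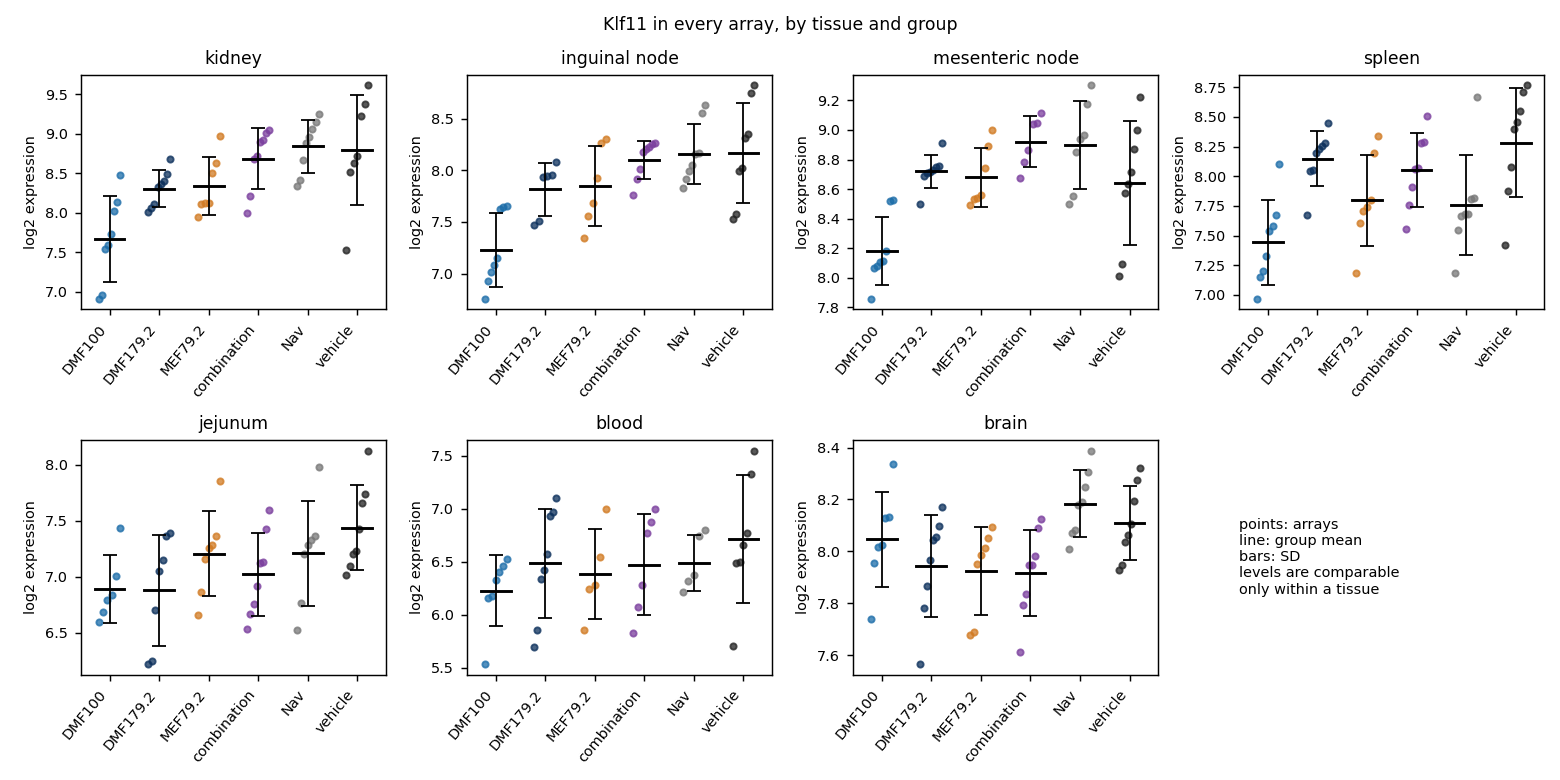
Klf11 level (log2 expression value) in every array by tissue and group, with the group mean as a line and the SD as bars; points are single arrays, spread sideways only so that they can be told apart. In kidney the DMF100 arrays lie between 6.91 and 8.48, the combination between 7.99 and 9.05 and vehicle between 7.53 and 9.61, and every dosed group overlaps vehicle in every tissue.

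The counts of calls are read against the share of all tested genes called in the same comparison. Under DMF100 it was 8.09% in kidney, 1.69% in inguinal node, 1.85% in mesenteric node, 0.834% in spleen, 0.996% in jejunum, 0.26% in blood and 0.4% in brain. Under DMF179.2 it was 16.7% in kidney, 0.379% in inguinal node, 7.88% in mesenteric node, 24.4% in spleen, 27.4% in jejunum, 1.34% in blood and 1.09% in brain. These shares differ widely between tissues, so the same call carries different weight in each. Under MEF79.2 it was 14.2% in kidney, 0.00947% in inguinal node, 4.75% in mesenteric node, 0.111% in jejunum, 0.362% in brain and 0% in spleen and blood (562 and 1149 genes at an unadjusted limma p under 0.05). Under the combination it was 30.3% in kidney, 0.0474% in inguinal node, 12.7% in mesenteric node, 0.0284% in spleen, 3.84% in jejunum, 0.297% in brain and 0% in blood (775 genes at an unadjusted p under 0.05). In Nav it was 49.8% in kidney, 0.0189% in inguinal node, 50.6% in mesenteric node, 13.4% in spleen, 7.87% in jejunum, 0.0193% in blood and 3.83% in brain. Without DMF179.2 array 23, the array of lowest correlation in mesenteric node, 352 genes were called there under DMF179.2, against 841 with it, and without Nav array 40 in blood 292 were called, against 139.

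The departure from additivity asks what the combination does beyond its parts. It is the combination minus DMF100 minus MEF79.2 plus vehicle, so a value above 0 means a combination level above the one obtained by adding both single differences to vehicle. The same arrays enter the single differences, so a gene high under DMF100 is pushed towards a departure below 0. A gene low under DMF100 is pushed above 0 in the same way. Kidney had the largest departure of Klf11, at 1.47 ± 0.32. There the single differences add to -1.58, which from the vehicle mean gives 7.21, and the combination was at 8.68, or 2.77 times that level. In inguinal node the parts add to -1.26, giving 6.91, and the combination was at 8.10, a departure of 1.20 ± 0.24. In spleen they add to -1.33, giving 6.96 against a measured 8.05, a departure of 1.10 ± 0.26. The departures were 0.70 ± 0.19 in mesenteric node and 0.36 ± 0.29 in jejunum. Outside the tissues that chose the gene, the limma departure was 0.57 ± 0.36 in blood (adjusted p = 0.806) and 0.06 ± 0.12 in brain (adjusted p = 0.957). The blood interval runs from -0.15 to 1.30, which holds the inguinal node and spleen departures, and the brain interval runs from -0.18 to 0.29.

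The departure of Klf10 was also above 0 in kidney, at 0.99 ± 0.20, and in inguinal node, at 0.54 ± 0.14. In kidney the parts add to -1.26, giving 8.95, and the combination was at 9.94. In the tissues that did not choose it, Klf10 departed by 0.32 ± 0.10 in spleen, 0.19 ± 0.17 in blood and 0.17 ± 0.10 in mesenteric node, and by -0.28 ± 0.11 in jejunum and -0.34 ± 0.12 in brain. None of these 5 passed in limma, with adjusted p = 0.392, 0.875, 0.551, 0.308 and 0.491 in that order, and their unadjusted 95% intervals lay above 0 in spleen (0.11 to 0.52) and below 0 in jejunum (-0.50 to -0.07) and brain (-0.58 to -0.09). The sign of the fitted value thus was the same for both genes in 5 tissues, and opposite in jejunum and brain. The unadjusted 95% interval held 0 for Klf11 in jejunum, brain and blood, and for Klf10 in blood and mesenteric node. In those cases the sign is not settled.

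Both genes were among the genes called for departure in kidney and inguinal node, which is part of how they were chosen. The calls in inguinal node were not stable. That of Klf10 was made in 7 of 11 alternative fits and in 9 of 30 fits that left out 1 array, with departures between 0.48 and 0.58 over those 30, and that of Klf11 was lost when only the compared groups were fitted. The share of all tested genes called was 1.18% in kidney, 0.767% in inguinal node, 0.328% in mesenteric node, 0.295% in jejunum, 0.177% in brain and 0.0193% in blood. In spleen limma called 0 of 10549 genes (720 at an unadjusted p under 0.05). Nearest the edge of the call, the called departure was Klf10 in inguinal node at 0.54 ± 0.14 and the uncalled one Klf11 in mesenteric node at 0.70 ± 0.19. Mesenteric node is counted among the tissues that chose Klf11 through its single-compound pattern, not through a called departure. By size of departure among all tested genes, Klf11 ranked 8th in kidney, 16th in inguinal node and 51st in spleen, and Klf10 ranked 23rd in kidney and 229th in inguinal node. Those tissues chose the genes, so high ranks there are part of the choice. Klf11 ranked 156th in mesenteric node, 243rd in blood, 1046th in jejunum and 5528th in brain. Klf10 ranked 135th in brain, 692nd in spleen, 1706th in jejunum, 3033rd in mesenteric node and 3655th in blood. The other genes with the largest called departures in kidney were Cbr3 (a carbonyl reductase) at -1.80, the cytochrome P450 gene Cyp2d9 at -1.53, the endothelial lipase gene Lipg at -1.48, Dusp4 (a MAP kinase phosphatase) at 1.17 and the cold-inducible RNA-binding gene Rbm3 at -1.11. In inguinal node they were the interferon-inducible chemokine genes Cxcl10 at -1.63 and Cxcl9 at -0.87, and E230029C05Rik at 1.19, 0610040B10Rik at 0.97 and 2810454H06Rik at 0.93. Of all called departures, 65 of 126 lay above 0 in kidney and 51 of 81 in inguinal node.

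**Figure D2:**
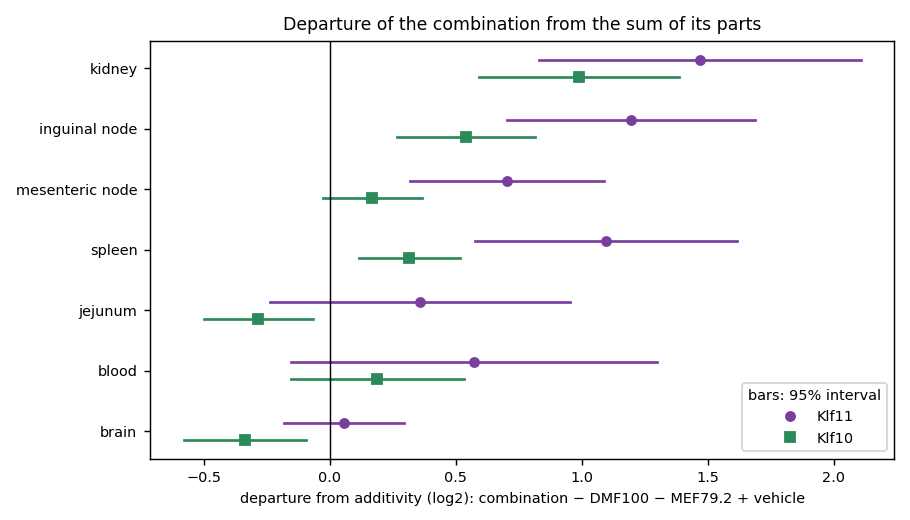
Departure from additivity (log2 units; points are fitted values and bars 95% confidence intervals) of Klf11 and Klf10 in each tissue, with a line at 0 for an additive combination. Klf11 lies between 0.06 in brain and 1.47 in kidney, and Klf10 between -0.34 in brain and 0.99 in kidney.

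Klf10 varied less than Klf11 within groups in every tissue but brain, where the pooled SDs were 0.169 and 0.166. Its group SDs lay between 0.07 and 0.40, against 0.11 to 0.70 for Klf11. In kidney, where it was chosen, Klf10 ran from 9.38 over 9.45 to 9.97 under DMF100, from 9.63 over 9.85 to 10.28 under DMF179.2 and from 9.16 over 9.65 to 9.79 under MEF79.2. The combination ran from 9.32 over 9.98 to 10.45, Nav from 9.60 over 9.79 to 10.15 and vehicle from 9.55 over 10.17 to 10.76. Both single-compound groups lay wholly below the vehicle mean, with 5 of 8 DMF100 kidneys and 3 of 7 MEF79.2 kidneys below every vehicle kidney. The differences from vehicle were -0.62 ± 0.14 for DMF100, -0.34 ± 0.14 for DMF179.2, -0.64 ± 0.14 for MEF79.2 and -0.27 ± 0.14 for the combination. The doses of MEF79.2 and DMF100 differ, and side by side their Klf10 means were 9.57 ± 0.22 and 9.59 ± 0.23 (SD).

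In inguinal node Klf10 ran from 10.01 over 10.27 to 10.41 under DMF100, from 10.20 over 10.34 to 10.66 under DMF179.2 and from 10.01 over 10.20 to 10.33 under MEF79.2. The combination ran from 10.20 over 10.50 to 10.64, Nav from 10.04 over 10.34 to 10.81 and vehicle from 10.23 over 10.45 to 10.93. The 6 MEF79.2 nodes and the 8 DMF100 nodes all lay below the vehicle mean, and 4 of the 8 combination nodes did. The differences from vehicle were -0.28 ± 0.09 for DMF100, -0.34 ± 0.10 for MEF79.2 and -0.08 ± 0.09 for the combination.

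In brain, one of the 5 tissues open to a test, Klf10 rose under DMF100. It ran from 11.13 over 11.39 to 11.56 under DMF100, from 10.89 over 11.11 to 11.40 under DMF179.2, from 11.05 over 11.12 to 11.21 under MEF79.2, and from 10.86 over 11.17 to 11.43 under the combination. Nav ran from 10.64 over 11.01 to 11.21 and vehicle from 10.78 over 10.92 to 11.32. All 7 DMF100 brains lay above the vehicle mean and 4 lay above every vehicle brain, so the groups still overlap. The limma difference was 0.38 ± 0.09, adjusted p = 0.0249, where 0.4% of 10763 genes were called. DMF179.2, MEF79.2 and the combination were at 0.16 ± 0.08, 0.17 ± 0.09 and 0.22 ± 0.08, with adjusted p = 0.346, 0.273 and 0.189. The DMF100 call was lost when arrays were centred on their median (limma adjusted p = 0.0721), with the hybridisation controls as a covariate (0.114) and when only both groups were fitted (0.0765). It was also lost in 7 of 15 fits that left out 1 array (DMF100 array 10, 11, 14 or 15, or vehicle array 2, 3 or 8). In the leave-out fits the difference lay between 0.34 and 0.43.

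In mesenteric node Klf10 fell under MEF79.2, and its means under both DMF doses lay close to vehicle. It ran from 10.48 over 10.65 to 10.83 under DMF100, from 10.47 over 10.66 to 10.80 under DMF179.2, from 10.25 over 10.37 to 10.63 under MEF79.2, and from 10.39 over 10.62 to 10.69 under the combination. Nav ran from 10.12 over 10.40 to 10.52 and vehicle from 10.47 over 10.65 to 10.89. Of the 7 MEF79.2 nodes 5 lay below every vehicle node. The limma difference was -0.26 ± 0.07 (adjusted p = 0.0246; 4.75% of genes called), while DMF100 was at 0.02 ± 0.06 (adjusted p = 0.939) and the combination at -0.07 ± 0.07 (adjusted p = 0.473). The MEF79.2 call was lost with the hybridisation controls as a covariate (limma adjusted p = 0.07), with only both groups fitted (adjusted p = 0.0637), and without MEF79.2 array 30 or 31 or vehicle array 4 or 7, where it lay between -0.26 and -0.23. The doses of the pair differ by mass, and side by side MEF79.2 averaged 10.40 ± 0.13 and DMF100 10.67 ± 0.12 (SD).

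In spleen MEF79.2 and DMF100 had the lowest Klf10 means, with no call. The lowest, median and highest were 10.21, 10.32 and 10.63 for DMF100, 10.42, 10.54 and 10.66 for DMF179.2, 9.98, 10.34 and 10.47 for MEF79.2, and 10.23, 10.44 and 10.52 for the combination, against 10.42, 10.53 and 10.85 for vehicle. Nav ran from 10.33 over 10.43 to 10.77. Of the 7 MEF79.2 spleens, and likewise of the 8 DMF100 spleens, 5 lay below every vehicle spleen. MEF79.2 was at -0.29 ± 0.07 (limma adjusted p = 0.837, in a comparison with 0% of genes called) and DMF100 at -0.17 ± 0.07 (adjusted p = 0.281; 0.834% called).

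In jejunum and blood Klf10 passed no test against vehicle, with limma adjusted p between 0.162 and 0.985 in jejunum and between 0.353 and 0.873 in blood. In jejunum it ran from 11.30 over 11.42 to 11.69 under DMF100, from 11.04 over 11.11 to 11.32 under DMF179.2, from 11.16 over 11.26 to 11.45 under MEF79.2, from 10.996 over 11.12 to 11.56 under the combination, from 11.17 over 11.38 to 11.50 in Nav, and from 11.07 over 11.28 to 11.50 under vehicle. DMF100 was the highest group there and DMF179.2 the lowest. In blood the 5 MEF79.2 arrays had 8.82, 9.02, 8.56, 8.77 and 8.71, DMF100 ran from 8.43 over 8.70 to 9.16, DMF179.2 from 8.91 over 9.10 to 9.49, the combination from 8.58 over 8.88 to 9.09, and vehicle from 8.65 over 9.01 to 9.19. All dosed groups of both genes in all tissues, 28 of 28 each, overlap vehicle. The 5 Nav arrays of blood had 9.37, 8.93, 9.40, 9.31 and 9.05, of which 3 lay above every vehicle array (0.26 ± 0.12, limma adjusted p = 0.353). Klf10 was lowest under MEF79.2 in 4 tissues, and in each of them the next group mean was closer than the spread of those groups. Klf11 was lowest under DMF100 in 5. For Klf11 the next mean was farther off than that spread in kidney, inguinal node and mesenteric node, but not in spleen and blood.

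**Figure D3:**
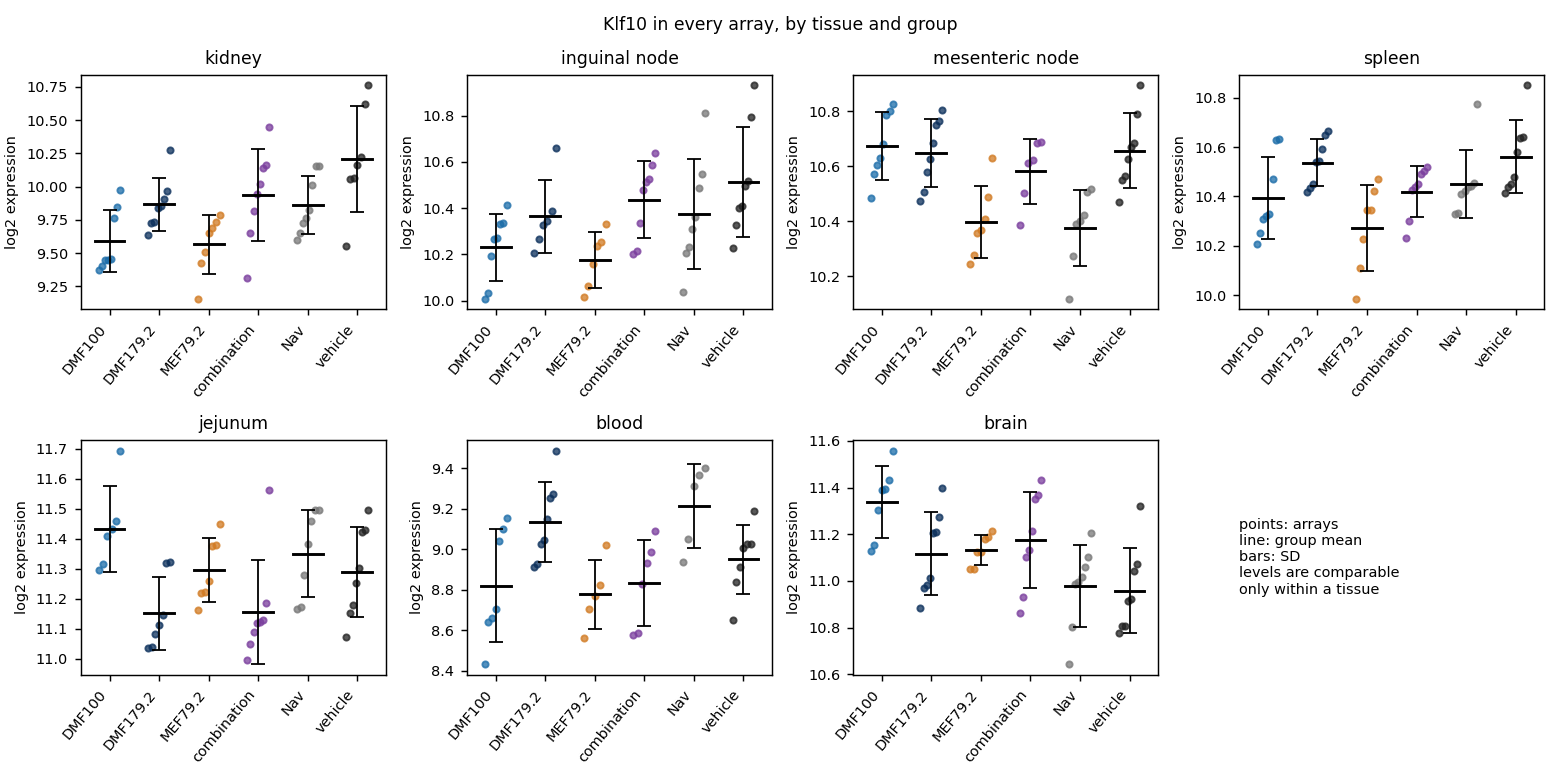
Klf10 level (log2 expression value) in every array by tissue and group, with the group mean as a line and the SD as bars; points are single arrays, spread sideways only so that they can be told apart. In kidney DMF100 lies between 9.38 and 9.97, MEF79.2 between 9.16 and 9.79, the combination between 9.32 and 10.45 and vehicle between 9.55 and 10.76.

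A second contrast in the series is the dose of DMF. Klf11 was higher under DMF179.2 than under DMF100 in 5 of 7 tissues, by 0.70 ± 0.18 in spleen, 0.64 ± 0.22 in kidney, 0.59 ± 0.18 in inguinal node, 0.54 ± 0.13 in mesenteric node and 0.26 ± 0.23 in blood. It did not differ by more than its error in jejunum (-0.01 ± 0.22) and was lower in brain (-0.10 ± 0.08). The limma adjusted p was 0.719 in blood and 0.66 in brain, and the other tissues chose the gene. Of all tested genes, 2.56% were called for this difference in spleen, 1.36% in kidney, 0.00947% in inguinal node, 0.59% in mesenteric node, 0.0186% in brain and 0% in blood (1158 at an unadjusted limma p under 0.05). Where DMF100 was the lowest group mean, a higher mean under DMF179.2 follows from that rank, so no dose trend is read from those tissues. For Klf10 the dose difference passed in jejunum, where DMF179.2 was lower by -0.28 ± 0.08 (limma adjusted p = 0.0192), in a comparison in which 11.6% of genes were called. That call was lost without DMF100 array 13 (adjusted p = 0.0736). In blood it was 0.31 ± 0.11 (adjusted p = 0.271), in spleen 0.14 ± 0.07 (adjusted p = 0.192), in mesenteric node -0.02 ± 0.06 (adjusted p = 0.858) and in brain -0.22 ± 0.09 (adjusted p = 0.303).

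DMF179.2 and the combination have the same total mass of fumarate compounds, so this pair sets DMF alone against DMF with MEF salts at a matched mass. For Klf11, DMF179.2 minus the combination was -0.38 ± 0.22 in kidney, -0.29 ± 0.18 in inguinal node, -0.20 ± 0.14 in mesenteric node, -0.14 ± 0.20 in jejunum and 0.09 ± 0.18 in spleen. It was 0.01 ± 0.24 in blood and 0.03 ± 0.08 in brain, with limma adjusted p = 0.996 and 0.929. For Klf10 it was 0.30 ± 0.11 in blood (95% interval 0.07 to 0.53, adjusted p = 0.545), 0.12 ± 0.07 in spleen (adjusted p = 0.274), 0.07 ± 0.07 in mesenteric node (adjusted p = 0.723), -0.01 ± 0.07 in jejunum (adjusted p = 0.985) and -0.06 ± 0.08 in brain (adjusted p = 0.822). The brain interval for Klf11 runs from -0.14 to 0.19 and the jejunum interval for Klf10 from -0.16 to 0.14. This pair had 11.4% of genes called in kidney, 5.64% in spleen, 0.00937% in mesenteric node, 0.00929% in brain and 0% in inguinal node, jejunum and blood (555, 1252 and 685 genes at an unadjusted limma p under 0.05). A p that misses the threshold does not show that both treatments act alike, and these intervals state what differences remain possible.

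The choice did not use the group labelled Nav, but the same vehicle arrays stand on the other side of its differences, so in the tissues that chose a gene they are given with no test. Klf10 fell in Nav in mesenteric node by 0.28 on the log2 scale (-0.28 ± 0.07, limma adjusted p = 6.18e-04), where all 7 arrays lay below the vehicle mean and 5 below every vehicle array. That comparison had 50.6% of all tested genes called, so a call there is close to the background. With the hybridisation controls as a covariate Klf10 in mesenteric node was at -0.21 (limma adjusted p = 0.07). In kidney Klf10 in Nav was at -0.35 ± 0.14, with all 8 arrays below the vehicle mean, and between -0.46 and -0.25 when 1 array was left out. With that covariate the kidney difference was -0.14. In kidney the exocrine pancreas list averaged 4.51 in Nav and 2.70 under vehicle, and its part in the result was not tested. Klf11 in Nav was at -0.53 ± 0.18 in spleen, with 7 of 8 arrays below the vehicle mean, and between -0.66 and -0.45 when 1 array was left out. In the other tissues that chose it, Klf11 in Nav was at 0.04 ± 0.22 in kidney, 0.26 ± 0.13 in mesenteric node, -0.01 ± 0.17 in inguinal node and -0.23 ± 0.20 in jejunum. In blood it was at -0.22 ± 0.26 and in brain at 0.08 ± 0.08 (limma adjusted p = 0.756 and 0.635).

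Both genes also varied between arrays of the same group, and in most tissues they did so together. After each group's mean was taken out, Klf10 and Klf11 correlated with r = 0.76 and rho = 0.71 over the 46 kidney arrays, r = 0.71 and rho = 0.68 over 47 spleens, and r = 0.70 and rho = 0.67 over 44 inguinal nodes. Benjamini-Hochberg adjusted p over the 7 tissues was 2.33e-05 for each of these by both measures, in a permutation test within groups whose smallest possible raw p, 1e-05, was reached. In mesenteric node r was 0.49 and rho 0.43 over 44 arrays, with permutation adjusted p = 0.00209 and 0.00911. In jejunum r was 0.21 over 43 arrays (rho = 0.19) and in blood 0.08 over 38 (rho = 0.06), with permutation adjusted p = 0.226 and 0.295, and 0.619 and 0.745. In brain the genes moved oppositely, with r = -0.62 and rho = -0.66 over 46 arrays and permutation adjusted p = 7e-05 and 3.5e-05. Without the pair of arrays farthest from the median of Klf10, r was 0.68 in kidney, 0.67 in spleen, 0.63 in inguinal node, 0.39 in mesenteric node and -0.67 in brain. Kidney, inguinal node, spleen and mesenteric node, the tissues where the test was passed with a positive correlation, also had the largest Klf11 departures. All of them chose Klf11, so their large departures are part of the choice. A link between correlation and departure was not tested.

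**Figure D4:**
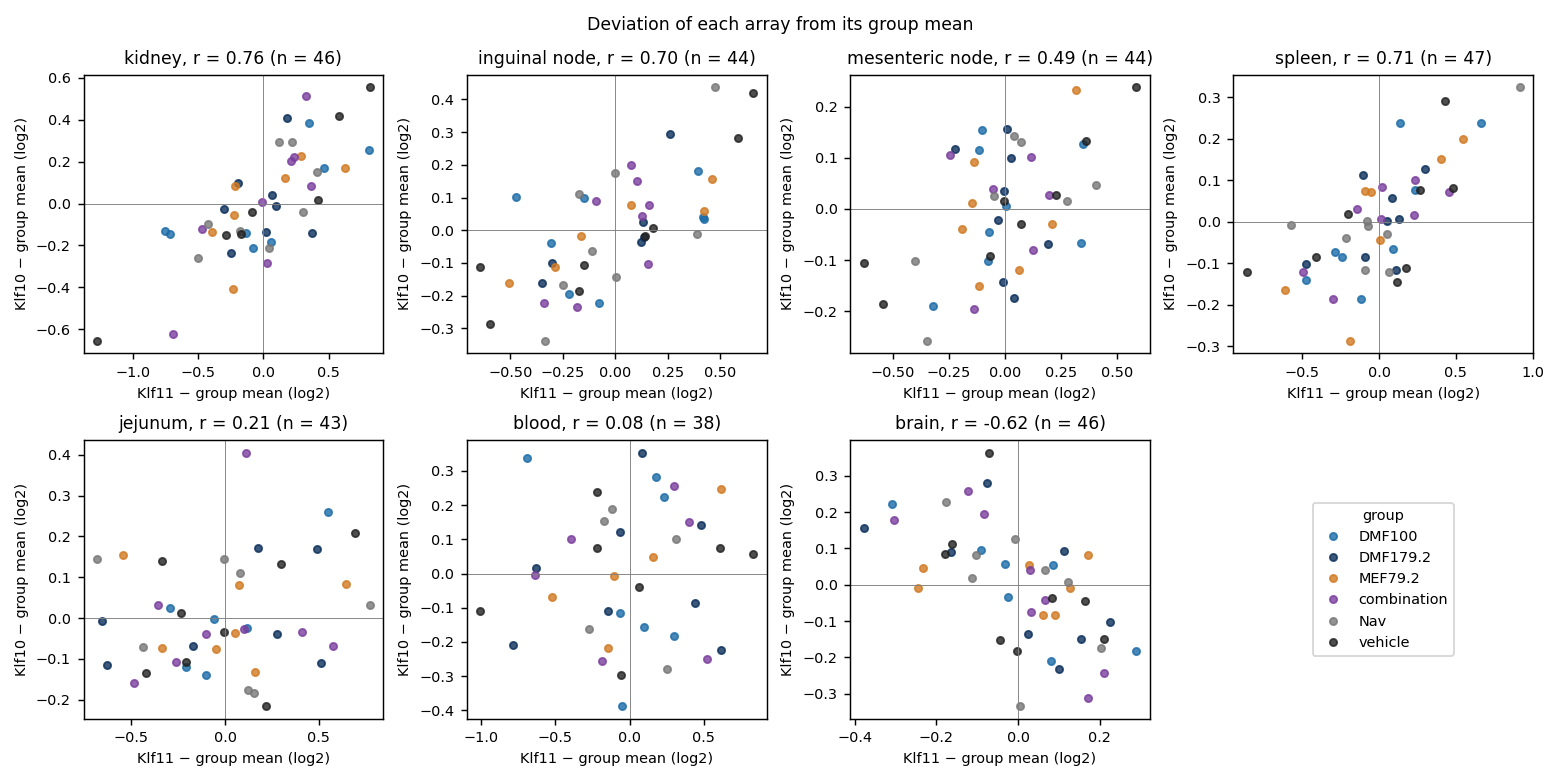
Deviation of Klf10 (vertical, log2) against that of Klf11 (horizontal, log2) from the mean of the array's own group, 1 panel per tissue and 1 point per array. The points rise together in kidney (r = 0.76) and fall in brain (r = -0.62).

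Array numbers recur across tissues, and the labels do not say whether equal numbers mark the same mouse. Deviations of Klf11 from group means were compared between arrays of equal number for each of the 21 pairs of tissues. The correlation was positive in 21 of 21 pairs, with r between 0.14 and 0.77 and a median of 0.56, and 16 pairs had an adjusted p under 0.05 by both r and rho (permutation within groups, adjusted over the 42 relations of both genes). The highest was between inguinal node and spleen (r = 0.77, rho = 0.79, 44 arrays, permutation adjusted p = 7e-05 and 8.4e-05, r = 0.83 without the farthest pair of arrays). For blood and kidney it was r = 0.71 and rho = 0.69 over 38 arrays (permutation adjusted p = 7e-05 and 1.4e-04, r = 0.60 without the farthest pair). For Klf10, 17 of 21 pairs were positive, with r between -0.23 and 0.70 and a median of 0.27, and 9 pairs had an adjusted p under 0.05. The highest was between inguinal node and kidney (r = 0.70, rho = 0.71, 43 arrays, permutation adjusted p = 7e-05 and 8.4e-05, r = 0.74 without the farthest pair). All 4 negative pairs of Klf10 included brain. Vehicle array 4 was the highest vehicle array in 5 of 7 tissues for each gene, and vehicle array 1 the lowest in 4 tissues for Klf11 and in 3 for Klf10. The tissues are therefore not independent, and a like departure in several of them is not counted here as repeated evidence.

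**Figure D5:**
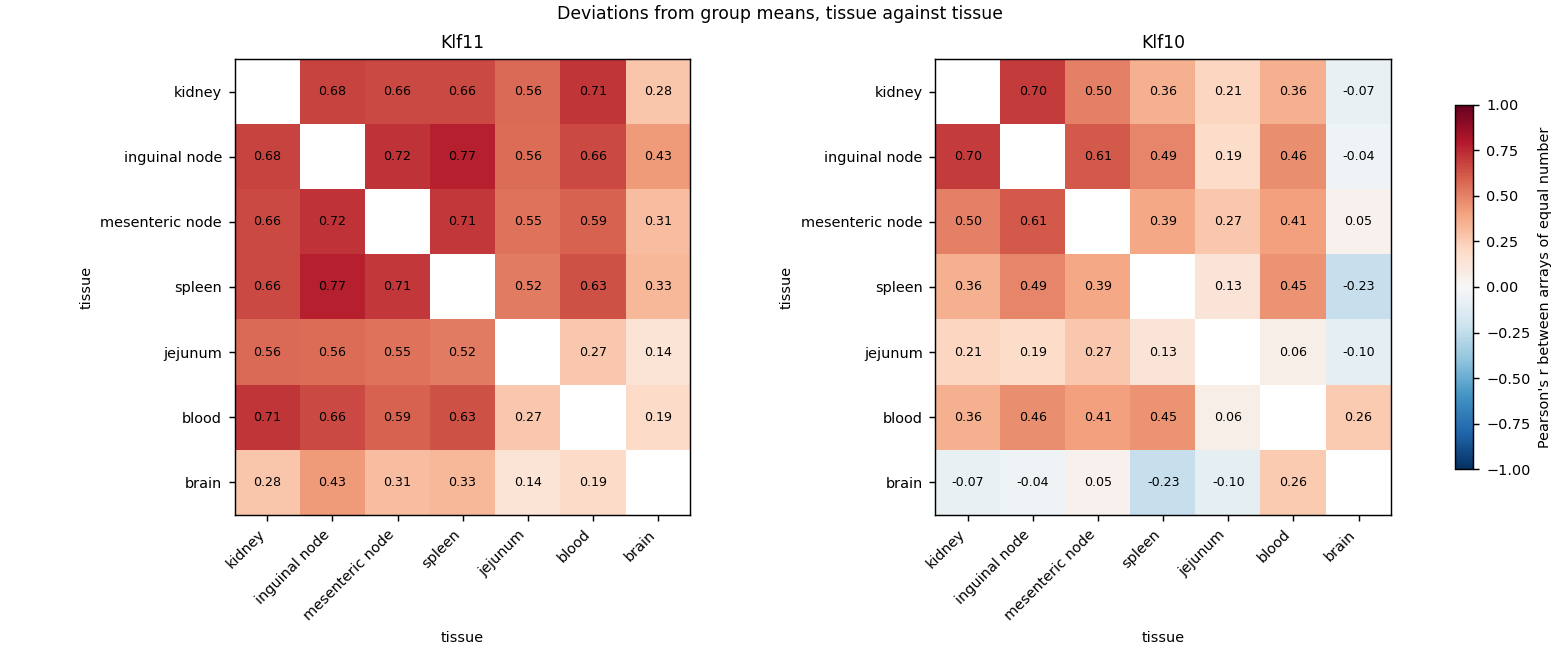
Pearson's r of the deviations from group means between arrays of equal number in each pair of tissues, for Klf11 (left) and Klf10 (right); colour runs from -1 to 1 and each square carries its r. Klf11 squares lie between 0.14 and 0.77, and those of Klf10 between -0.23 and 0.70 with pairs that include brain between -0.23 and 0.26.

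Which other genes varied most like the pair was described over all 308 arrays and 7849 genes tested in every tissue, after the tissue mean was taken out. For Klf11 the 5 highest correlations were with Angptl4 (r = 0.60), an inhibitor of lipoprotein lipase, Txnip (0.52), an inhibitor of thioredoxin and of glucose uptake, Cpt1a (0.51), which brings fatty acids into mitochondria, the transcriptional repressor Hbp1 (0.44) and the kinase gene Pim3 (0.43). Klf10 was the 7th with r = 0.41. The 3 lowest were Vps37a (-0.54), a sorting complex subunit, Cybc1 (-0.50), a chaperone of the phagocyte oxidase, and the clock repressor Cry1 (-0.48). For Klf10 the highest were Bach1 (0.53), a repressor of antioxidant genes, Fgd4 (0.48), an exchange factor for CDC42, Dusp6 (0.45), a phosphatase of ERK kinases, Tcf7l2 (0.45), a factor of the WNT pathway, and Cdkn1b (0.44), a cell cycle inhibitor. The lowest were Bcl9l (-0.41), Cnot2 (-0.40) and Fbl (-0.39), of which the last encodes the nucleolar protein fibrillarin. The arrays share tissue, group and number, so these values are descriptions and carry no p.

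With the group mean also taken out, Angptl4 (0.58), Txnip (0.55) and Cpt1a (0.47) still led for Klf11, followed by Klf10 (0.43). Other named genes moved. Vps37a was no longer the lowest for Klf11, and Cry1 was at -0.38. For Klf10, Fgd4 (0.51) led, Bach1 (0.49) was 6th, and Dusp6 and Tcf7l2 were no longer among the 10 highest. The lowest for Klf10 was then Srrt (-0.44). Within the 46 kidneys, deviations of Klf11 were most like those of Angptl4 (0.77), Txnip (0.76) and Igfbp1 (0.76), an insulin-repressed binding protein, and then Klf10 (0.76), and among 10706 genes the one most like Klf10 was Klf11. Within the 44 inguinal nodes Klf11 was most like Angptl4 (0.76), Pdk4 (0.71), which restrains glucose oxidation, and Klf10 (0.70). The kidney and inguinal node views were added after the data had been seen.

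The remaining KLF genes encode factors that bind related sites. Between 8 and 10 of them were tested in each tissue, and 0 were called for departure by limma in any tissue, with fitted departures between -0.49 and 0.98. At most 1.18% of all genes were called for departure in a tissue, so nothing is read from that count of 0. In kidney, where 1.18% of all genes were called, the 10 others had departures between -0.48 and 0.12 with a median of -0.02, against 0.003 over all genes. Under DMF100, Klf4 rose in kidney (0.19 ± 0.04, limma adjusted p = 0.00503; 1 of 10 called against 8.09% of genes), and Klf16 rose in inguinal node (0.23 ± 0.05, adjusted p = 0.0117; 1 of 9 against 1.69%) and in mesenteric node (0.25 ± 0.06, adjusted p = 0.036; 1 of 8 against 1.85%). KLF4 is a factor of epithelial differentiation. No remaining KLF gene was called lower under DMF100 in any tissue. With 0.26% to 8.09% of all genes called in either direction, nothing is read from that.

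In kidney more family members moved under MEF79.2, with 4 of 10 higher and 1 lower against 14.2% of all genes called. They were Klf2, a factor of quiescent endothelium and lymphocytes (0.44 ± 0.12), Klf16 (0.23 ± 0.06), Klf13 (0.19 ± 0.05) and Klf4 (0.16 ± 0.05), and Klf3, a repressor, which fell (-0.29 ± 0.09). Under the combination the same direction was called for Klf2, Klf13, Klf4 and Klf3, against 30.3% of genes called. In jejunum under DMF179.2, with 27.4% of genes called, Klf15 and Klf16 rose by 0.63 ± 0.24 and 0.37 ± 0.09 and Klf5 and Klf4 fell (-0.79 ± 0.20 and -0.38 ± 0.08). KLF5 is a factor of the intestinal crypt. Klf4 fell there under the combination too (-0.32 ± 0.07; 3.84% called). In spleen under DMF179.2, with 24.4% called, Klf1, which drives red cell maturation, rose by 2.28 ± 0.66, and Klf4 and Klf6 fell (-0.28 ± 0.07 and -0.20 ± 0.05). In Nav kidneys, with 49.8% of all genes called, 3 of 10 rose, Klf1 (0.53 ± 0.10), Klf2 (0.49 ± 0.11) and Klf13 (0.27 ± 0.04). Another 4 fell, Klf3 (-0.47 ± 0.08), Klf12 (-0.47 ± 0.12), Klf9 (-0.21 ± 0.08) and Klf6 (-0.17 ± 0.05). In Nav mesenteric nodes, with 50.6% called, Klf4 rose (0.24 ± 0.09) and Klf3 and Klf6 fell (-0.57 ± 0.07 and -0.35 ± 0.06). At these shares nothing is read from the counts. Klf6 also fell in Nav spleens (-0.26 ± 0.05, 13.4% called), and Klf4 and Klf5 in Nav jejunum (-0.28 ± 0.08 and -0.65 ± 0.20, 7.87% called).

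TGF-beta genes lie upstream of the pair in many cells, and their counts are read against the shares of all genes called, 8.09% in kidney and 0.26% to 1.85% elsewhere under DMF100, and at most 1.18% for departure. At most of these shares a list of 20 or fewer genes holds few calls or none, so nothing is read from a count of 0. Of the ligands, receptors and SMAD genes, between 17 and 20 were tested per tissue, and under DMF100 only Smad2, a receptor-regulated SMAD, passed, in kidney (0.19 ± 0.05, limma adjusted p = 0.0074). No gene of that list was called for departure. Among 14 target genes of the pathway tested in kidney, Tgif1, a SMAD corepressor, fell under DMF100 (-0.36 ± 0.09, adjusted p = 0.0061) and departed by 0.55 ± 0.12 (adjusted p = 0.013). Bhlhe40, of the same list, also fell in kidney under DMF100 and was not called for departure. With 8.09% of all genes called there under DMF100, nothing is read from these calls as a group. The kidney means of Tgif1 were 6.84 ± 0.19 under DMF100, 7.17 ± 0.14 under MEF79.2 and 7.37 ± 0.22 under the combination, against 7.20 ± 0.23 under vehicle (SD). Of the 14 targets tested in jejunum 1 passed under DMF100 and 1 for departure, Bhlhe40 each time, and of 13 in spleen Id1 fell under DMF100 (-0.41 ± 0.11).

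Of the SIN3 corepressor genes, 14 were tested per tissue and none was called for departure by limma. In kidney under DMF100, where 8.09% of all genes were called, Sin3b rose by 0.17 ± 0.04 and Brms1 fell (-0.29 ± 0.08). The SP genes, which read the same GC boxes, numbered 3 or 4 per tissue and had 0 calls under DMF100 and for departure. Among the genes listed as reported targets of KLF10 or KLF11, 3 to 7 were tested per tissue, with 0 calls under DMF100 and 0 for departure in any tissue. Of all genes, 0.26% to 8.09% were called under DMF100 and at most 1.18% for departure. In lists this short, nothing is read from these counts of 0. Pck1, a gluconeogenesis enzyme, fell in kidney under MEF79.2 (-0.41 ± 0.09, limma adjusted p = 0.0019; 14.2% of all genes called). It also fell there under the combination (-0.55 ± 0.09, adjusted p = 9.6e-06; 30.3% called). Its kidney means were 5.26 ± 0.09 under MEF79.2 and 5.13 ± 0.16 under the combination, against 5.68 ± 0.17 under vehicle (SD). The MEF79.2 and combination means lie close to the kidney filter threshold of 5.10, so the signal was dim.

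Clock genes and immediate early genes, of which KLF10 is often counted as one, were looked at because Klf10 rose in brain under DMF100. In brain, Per1, a clock gene induced early by stimuli, rose under DMF100 (0.66 ± 0.13, limma adjusted p = 0.0036) and under MEF79.2 (0.79 ± 0.13, adjusted p = 0.0013) and departed by -1.07 ± 0.18 (adjusted p = 0.0016). It was the only one of 19 clock genes called for DMF100 or departure there. Of 14 immediate early genes tested in brain, 4 rose under DMF100 and the same 4 departed below 0, against 0.4% and 0.177% of all genes called. They were the nuclear receptor Nr4a1 (1.39 ± 0.20 and -1.87 ± 0.28), Egr2 (1.17 ± 0.25 and -1.77 ± 0.35), Fos (1.11 ± 0.23 and -1.44 ± 0.32) and Dusp1 (0.66 ± 0.12 and -0.87 ± 0.16). Brain Fos averaged 11.03 ± 0.30 under DMF100 and 10.25 ± 0.67 under the combination, against 9.92 ± 0.56 under vehicle (SD). Klf10 in brain had the same signs, higher under DMF100 and with a departure below 0 that did not pass. For all these genes the rise and the departure use the same DMF100 and vehicle arrays, so they are not separate results.

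In jejunum, 3 of 16 immediate early genes rose under DMF100 and departed below 0, against 0.996% and 0.295% of genes called. They were Atf3 (1.54 ± 0.27 and -2.15 ± 0.37), Fosb (1.39 ± 0.35 and -2.19 ± 0.49) and Fos (0.39 ± 0.10 and -0.70 ± 0.14). As in brain, the rise and the departure share arrays. The clock repressor Bhlhe40, which is also a TGF-beta target, rose there too (0.44 ± 0.11) and departed by -0.82 ± 0.15. In kidney Bhlhe40 fell under DMF100 (-0.33 ± 0.09), as did the clock output gene Tef (-0.32 ± 0.09), and neither was called for departure. Cry1 rose under DMF100 in mesenteric node (0.37 ± 0.07, limma adjusted p = 0.0016) and spleen (0.33 ± 0.08, adjusted p = 0.035). Among the glucocorticoid-responsive genes, of which Per1 and Dusp1 are also members, Ddit4 rose in kidney under DMF100 (0.32 ± 0.06, adjusted p = 5.9e-04) and departed by -0.39 ± 0.09, opposite in sign to Klf11.

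Marker lists and quality measures were compared between groups, and their part in the results was not tested. In inguinal node the adipocyte list of 4 genes averaged 10.34 under MEF79.2, 9.24 under DMF100 and 9.63 under the combination, against 9.13 under vehicle. The departure of this list was -0.82 in inguinal node, 0.02 in mesenteric node, 0.47 in jejunum and 0.99 in spleen. In spleen only 2 of its 4 genes averaged above the filter threshold. In mesenteric node the exocrine pancreas list of 5 genes averaged 2.79 under DMF100 and 5.14 under the combination, against 3.95 under vehicle, and its departure was 2.18. Only 1 of these 5 genes averaged above the filter threshold there, so most of that list was dim. In spleen the same list departed by 3.93, and again only 1 of its 5 genes averaged above the filter threshold. It averaged 4.72 under DMF100, 4.25 under MEF79.2 and 6.95 under the combination there, against 5.95 under vehicle. The erythroid list of 6 genes departed by 0.87 in spleen. In jejunum the ileum list of 4 genes averaged 8.20 in DMF100, 6.26 in DMF179.2 and 7.33 in combination arrays, against 9.0 under vehicle. In kidney, where the departures of Klf11 and Klf10 were largest, the adipocyte list departed by 0.26, the hybridisation controls by 0.04 and the 3′ minus 5′ difference of control transcripts by 0.03. The array of lowest correlation with its tissue was a MEF79.2 array in inguinal node, jejunum and brain, and without it the Klf11 departure there was 1.29, 0.27 and 0.08 in that order. In the other tissues that array was in DMF179.2 or Nav, which do not enter the departure.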

How the data were processed

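The deposited series matrix holds log2 expression values for 45141 probe sets of an Affymetrix HT MG-430 PM array in 308 arrays. Per the submitters' processing notes, RMA, GCRMA, R 2.11.1 and limma 3.4.5 were used, with no role given for each, and the authors' values were taken as deposited. No source used here gives the genome build. Total RNA of single tissues was biotin-labelled, per the labels' protocols. Groups were taken from sample titles. Microarrays have no read depth, so the number of arrays per group, 5 to 8, limits the precision. Arrays are not stated to come from separate mice within a group, and p-values measure the spread between these arrays.

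Probe sets were named through the platform table, in which 28898 carry 1 symbol, 551 carry several and 15692 are not named. Each gene was represented by its probe set of highest mean over all arrays. Genes entered a tissue's fit where 5 or more of its arrays exceeded the 50th percentile of that tissue. Each tissue was fitted apart with limma 3.58.1 in R 4.3.3, with 1 mean per group over all 6 groups, and p-values were adjusted over all genes kept. The script was tested on simulated data with known changes. Correlations used deviations from group means and 100000 permutations within groups, in Python 3.11.15 with scipy 1.17.1, and were added after the data had been seen.

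The members and gene lists were chosen with earlier results of these data known. Values in the tissues that chose a gene carry no p. Mesenteric node was added to these tissues for Klf11, because a single compound was low there and the combination was not. The text names the members, every other KLF gene called against vehicle, up to 4 called genes per list and comparison, the 5 largest called departures in kidney and inguinal node, and the 5 most like and 3 least like genes of each member. Alternatives were array weights, median centring, renewed quantile normalization, other filters and probe set rules, a covariate from hybridisation controls, trended and robust variance, fits of the compared groups alone, and leaving out arrays. Sequences are from RefSeq, GRCm38.p6.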

Additional observations from a re-analysis of the deposited data

Results flagged for a closer look

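In 4 of the 84 groups of arrays that were checked, 1 array stood far from the others of its group, where chance alone gives about 1 in 20 groups. Klf10 was 11.56 in jejunum combination array 37, with the others between 10.996 and 11.19. Without that array the jejunum difference of the combination from DMF100 was -0.34 (limma adjusted p = 0.0171), against -0.28 with it (adjusted p = 0.134). In spleen, Nav array 40 had 10.77 for Klf10, with the others between 10.33 and 10.45, and 8.67 for Klf11, with the others between 7.19 and 7.82. That array also had the lowest correlation with the other spleen arrays. Klf11 was 5.54 in blood DMF100 array 11, with the others between 6.16 and 6.53.

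Klf10 moved in opposite directions in some pairs of tissues, with every array of one tissue above its vehicle mean and every array of the other below. The difference between tissues was not tested in any of these 8 pairs. Under DMF100, brain (0.38) exceeded kidney (-0.62) by 0.996 and inguinal node (-0.28) by 0.66, and jejunum (0.15) exceeded kidney by 0.762 and inguinal node by 0.426. Under MEF79.2, brain (0.17) exceeded kidney (-0.64) by 0.816, inguinal node (-0.34) by 0.51, spleen (-0.29) by 0.464 and mesenteric node (-0.26) by 0.434.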

How the results depend on the processing

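Over 11 alternatives, the Klf11 departure lay between 1.46 and 1.66 in kidney, 1.19 and 1.42 in inguinal node, 1.08 and 1.26 in spleen, 0.66 and 0.71 in mesenteric node, 0.27 and 0.37 in jejunum, 0.47 and 0.61 in blood and 0.01 and 0.08 in brain. That of Klf10 lay between 0.99 and 1.13 in kidney and 0.54 and 0.63 in inguinal node. With array weights the Klf10 departure in spleen was 0.39 and passed (limma adjusted p = 0.0203), and the cause was not tested. Leaving out 1 array at a time, the Klf11 departure lay between 1.33 and 1.68 in kidney, 1.09 and 1.29 in inguinal node and 0.99 and 1.22 in spleen, and that of Klf10 between 0.90 and 1.10 in kidney. Of 154 differences, 24 that were not called changed sign in at least 1 alternative, with main sizes of at most 0.11, and 0 called ones did. Without vehicle arrays 1 and 4, chosen after seeing that they were extreme, which narrows the vehicle spread by construction, the Klf11 departure was 1.17 in spleen and 0.70 in mesenteric node. Counts of called genes depended on the setting. For departure they ran from 92 to 596 in kidney (126 as reported), 7 to 202 in inguinal node (81), 16 to 425 in mesenteric node (35), 18 to 237 in jejunum (32), 11 to 53 in brain (19), 0 to 13 in blood (2) and 0 to 148 in spleen (0). Under DMF100 they ran from 56 to 496 in inguinal node (178), 58 to 473 in mesenteric node (197), 28 to 816 in spleen (88), 83 to 521 in jejunum (108), 10 to 63 in blood (27) and 26 to 122 in brain (43). Under DMF179.2 they ran from 1280 to 2693 in kidney (1786), 28 to 565 in inguinal node (40), 352 to 1269 in mesenteric node (841), 2020 to 4603 in spleen (2573), 1547 to 4775 in jejunum (2969), 33 to 292 in blood (139) and 49 to 430 in brain (117). The 352 in mesenteric node was reached without DMF179.2 array 23, and the 292 in blood without Nav array 40. Under MEF79.2 they ran from 1097 to 2684 in kidney (1520), 0 to 207 in inguinal node (1), 76 to 771 in mesenteric node (507), 3 to 197 in jejunum (12), 0 to 92 in blood (0) and 3 to 282 in brain (39). For the combination they ran from 908 to 2440 in mesenteric node (1358), 69 to 608 in jejunum (416), 1 to 170 in spleen (3), 2 to 11 in inguinal node (5), 0 to 5 in blood (0) and 2 to 717 in brain (32). In Nav they ran from 3499 to 8030 in kidney (5332), 3394 to 8039 in mesenteric node (5401), 1112 to 4386 in spleen (1411), 0 to 1782 in jejunum (854), 1 to 314 in inguinal node (2), 0 to 33 in blood (2) and 295 to 1479 in brain (412). No paired analysis was possible because the groups of a tissue share no array numbers.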
